A study of Mus musculus with 106 samples.

Results

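The cells described here are 24 of the 106 single cells profiled in a study of mouse primordial germ cells (PGCs), the founders of sperm and eggs. They comprise 17 cells titled lineage-restricted PGC precursors of the Late-Streak/0-Bud stage, abbreviated LS/0B, and 7 cells so titled of the Early/Mid-Streak stage, abbreviated E/MS, and every cell with either title was used. Both groups came from wild-type C57BL/6 embryos at successive stages of gastrulation. All were dissected from embryonic fragments, dissociated with trypsin and EDTA and picked at random, and the cDNA of each cell was amplified by PCR and hybridised to its own array. Both groups are labelled positive for Blimp1 (Prdm1) and Oct4 (Pou5f1), and the cDNAs had been screened with primers for Blimp1 and fragilis (Ifitm3), so levels of these 3 genes are no finding. The labels name no embryo, litter or pool, so the cells of a stage may share an embryo and each stage counts as 1 sample. All differences below are therefore values of these cells, given with the SD over cells and without a test. Because each array holds 1 cell, a low signal can come from loss during amplification as well as from little RNA, and the data cannot tell these apart.

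PGCs arise in the posterior epiblast, where BMP signals from extraembryonic tissue and Wnt signals make a few cells express Prdm1. The Prdm1 product, Blimp1, is a transcriptional repressor. Together with the transcription regulator Prdm14 and the AP-2 family factor Tfap2c it turns off the mesodermal programme that neighbouring cells follow, while genes of the pluripotency network are kept or regained. The precursors therefore pass through a state in which early mesoderm genes, epiblast genes and the first germ cell genes can be found in the same cell population, and the comparison of the later with the earlier streak stage addresses what changes during it.

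Promoter sequences are shown for Kitl, the gene whose transcript had the largest lower bound of its fold difference among those seen only in LS/0B cells, and for Tdgf1, a gene that was spread widely among LS/0B cells and high in every E/MS cell. They are from RefSeq (GRCm38.p6), run 5′ to 3′ on the gene's own strand, and cover 250 bases before to 50 after the annotated start. Kitl lies on the plus strand, at chr10:100015571-100015870, and its capitals mark a TATA box (TATAAA).
Kitl: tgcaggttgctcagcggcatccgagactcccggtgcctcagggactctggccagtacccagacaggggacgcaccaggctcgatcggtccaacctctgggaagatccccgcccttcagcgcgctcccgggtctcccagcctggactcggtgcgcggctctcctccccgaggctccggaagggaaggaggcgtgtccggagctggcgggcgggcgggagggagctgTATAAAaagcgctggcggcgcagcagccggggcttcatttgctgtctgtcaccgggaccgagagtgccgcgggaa
Tdgf1 lies on the minus strand, at chr9:110946109-110946408. Its capitals mark 2 matches to the T-box half-site AGGTGT, read here as ACACCT, and 2 matches to the Blimp1 core motif GAAAGT, read here as ACTTTC.
Tdgf1: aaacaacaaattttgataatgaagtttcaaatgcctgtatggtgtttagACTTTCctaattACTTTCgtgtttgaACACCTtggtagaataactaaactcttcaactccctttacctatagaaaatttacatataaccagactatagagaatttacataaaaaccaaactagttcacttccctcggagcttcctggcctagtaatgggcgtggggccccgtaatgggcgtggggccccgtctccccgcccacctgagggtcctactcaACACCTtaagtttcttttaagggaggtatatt
The motifs were searched on both strands and their matches do not overlap. AGGTGT occurred in 13.9%, GAAAGT in 14.3% and TATAAA in 14.2% of 27025 mouse promoters of the same length. The Kitl window holds 28 CpG dinucleotides and the Tdgf1 window 7, against a median of 7 and quartiles of 3 and 21 over all promoters. Of the 30 genes with the largest differences named below, 22 had a promoter entry. AGGTGT was found in 0 of 11 promoters of genes higher at LS/0B and in 1 of 11 of genes lower at LS/0B, which is Tdgf1. GAAAGT was found in 1 of 11 and 2 of 11, and TATAAA in 2 of 11 and 1 of 11. A match describes these letters and does not show a bound site.

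The arrays of the groups were alike in yield: 12009 ± 1185 probe sets were detected per cell in LS/0B and 12251 ± 1168 in E/MS cells (SD, n = 17 and 7). A probe set was detected in a cell if brighter there than the 95th percentile of 126 background probe sets, those for odorant and taste receptors and hair keratin-associated genes. The LS/0B cells carry the replicate numbers 1 to 8, 14, 16 and 18 to 24, and the 8 cells with Xist, the RNA that coats the inactive X chromosome, are replicates 14 and 18 to 24. Xist was detected in 0 of 7 E/MS cells, while a Y-linked transcript was detected in 8 of 17 LS/0B and 6 of 7 E/MS cells, and no cell had both. At the stricter 99th percentile the LS/0B cells numbered 14 to 24 gave 8878 ± 467 detected probe sets (n = 9), those numbered 1 to 8 gave 7372 ± 743 (n = 8), and the E/MS cells 8317 ± 1020. The labels do not say what the numbers stand for. Xist, yield and replicate number run largely together in the LS/0B cells, so differences of the leading genes are also given for the 9 LS/0B cells without Xist or for each run of numbers against all 7 E/MS cells, and the part of these splits in any result was not tested.

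Signals below 70.2 (6.13 in log2), the floor set from the same background probe sets, were raised to it, and differences are LS/0B minus E/MS means of log2 signal. Of 18193 genes, 256 (1.41%) were at least 1 log2 unit higher and 250 (1.37%) at least 1 unit lower at LS/0B, a size used here for counting, not a test. The median difference was 0.00 over all genes and 0.01 over the 7213 genes with a detected signal in 50% or more of all 106 cells of the series. The balance of the counts depended on the LS/0B cells used. For those without Xist 211 genes (1.16%) were higher and 495 (2.72%) lower, for those numbered 1 to 8 there were 191 (1.05%) and 549 (3.02%), and for those numbered 14 to 24 there were 615 (3.38%) and 297 (1.63%).

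Germ cell genes made up the list with the highest median. Of the 11 measured members, 5 were at least 1 unit higher at LS/0B (Prdm14, Dnd1, Tfap2c, Dppa3 and Ifitm3), 0 were lower, and the median difference was 0.82. Leaving out the screening genes and Dppa3, which was used to choose PGCs elsewhere in the study, 3 of 8 remained higher and the median was 0.70. Over all 11 members the median was 0.49 for the LS/0B cells without Xist, 0.39 for those numbered 1 to 8 and 1.78 for those numbered 14 to 24. No other list had a median past 0.35 in either direction with all cells.

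**Figure D1:**
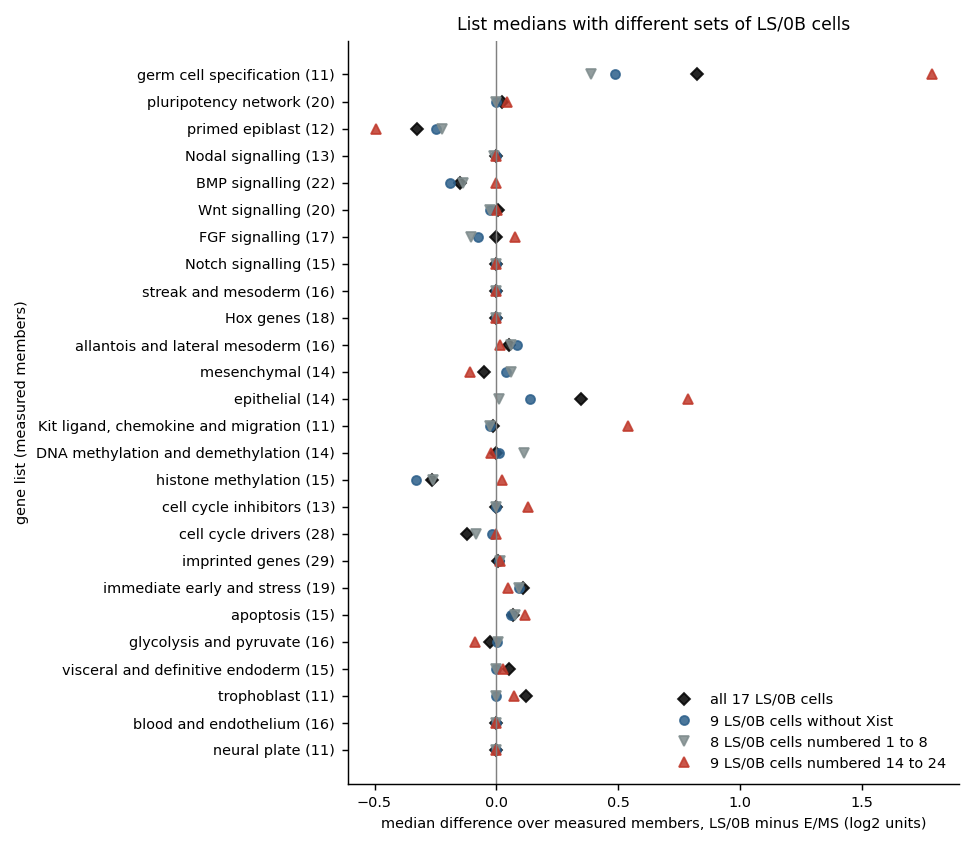
Median LS/0B minus E/MS difference over the measured members of each gene list (housekeeping and Xist and Y-linked genes left out), for all 17 LS/0B cells and for subsets of them against the same 7 E/MS cells. The germ cell list has the highest median with all cells (0.82), with cells numbered 14 to 24 (1.78) and with cells numbered 1 to 8 (0.39).

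Prdm14, a transcription regulator without which PGCs are not established, had the largest positive difference of the genes seen in most cells of a stage. Its log2 signal ran from 6.13 to 11.74 with a median of 9.78 in LS/0B cells, and stood at the floor of 6.13 in all 7 E/MS cells. It was detected in 11 of 17 LS/0B cells (exact 95% interval 38.3% to 85.8%) and in 0 of 7 E/MS cells, a count of 0 that leaves room for 42.9% (3 of 7 cells), or for 41.0% by the exact interval. These intervals cover counting error only. The LS/0B cells without a detected signal were replicates 1, 6, 7, 8, 14 and 23, so the groups overlapped only at the bottom of the LS/0B range. The means were 8.94 ± 2.06 in LS/0B and 6.13 ± 0.00 in E/MS cells, a difference of 2.80 log2 units, or at least 2.03-fold against the E/MS detection limits. The difference was 1.80 for the LS/0B cells numbered 1 to 8, 3.69 for those numbered 14 to 24 and 2.07 for those without Xist.

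Tfap2c, the AP-2 factor that acts with Prdm1 and Prdm14, ran from 6.13 to 9.66 (median 7.37) in LS/0B cells and from 6.13 to 6.54 (median 6.13) in E/MS cells. With the probe set used it was detected in 9 LS/0B and 0 E/MS cells and was 1.26 units higher at LS/0B, with 0.42 for cells numbered 1 to 8, 0.64 for cells without Xist and 2.00 for cells numbered 14 to 24. Its other probe sets detected it in 10 LS/0B and 3 E/MS cells (difference 1.38) and in 9 and 1 cells (1.62). Dnd1, an RNA-binding protein needed for germ cell survival, ran from 6.13 to 11.42 (median 9.59) in LS/0B cells and from 6.13 to 9.91 (median 6.26) in E/MS cells, where replicate 5 was the highest. It was detected in 12 and 3 cells and was 1.83 units higher at LS/0B, 0.88 for the cells numbered 1 to 8. Dppa3 (stella), a maternal-effect and PGC marker gene, stood at the floor in 9 LS/0B cells and reached 11.44 in replicate 18, while E/MS cells ran from 6.13 to 7.90. Its difference of 1.16 came from the higher LS/0B numbers: it was 0.01 for cells 1 to 8 and 2.17 for cells 14 to 24, and without LS/0B replicate 18, 19 or 20 it was 0.94, 0.99 or 0.96.

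The other germ cell genes differed by less. Kit, the receptor for Kit ligand, was detected in 4 of 17 LS/0B and 1 of 7 E/MS cells (difference 0.43), and Alpl, the tissue-nonspecific alkaline phosphatase long used to stain PGCs, in 13 and 6 cells (0.57). Ifitm1, a relative of fragilis, Sall4 and Lin28a were detected in every cell of both stages, with differences of 0.82, -0.19 and 0.51. Among the genes used for screening, Prdm1 averaged 9.24 ± 1.54 in LS/0B and 8.48 ± 1.03 in E/MS cells, Pou5f1 differed by -0.28, and Ifitm3 by 1.86, with 11.15 ± 1.60 in LS/0B and 9.29 ± 1.44 in E/MS cells.

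**Figure D2:**
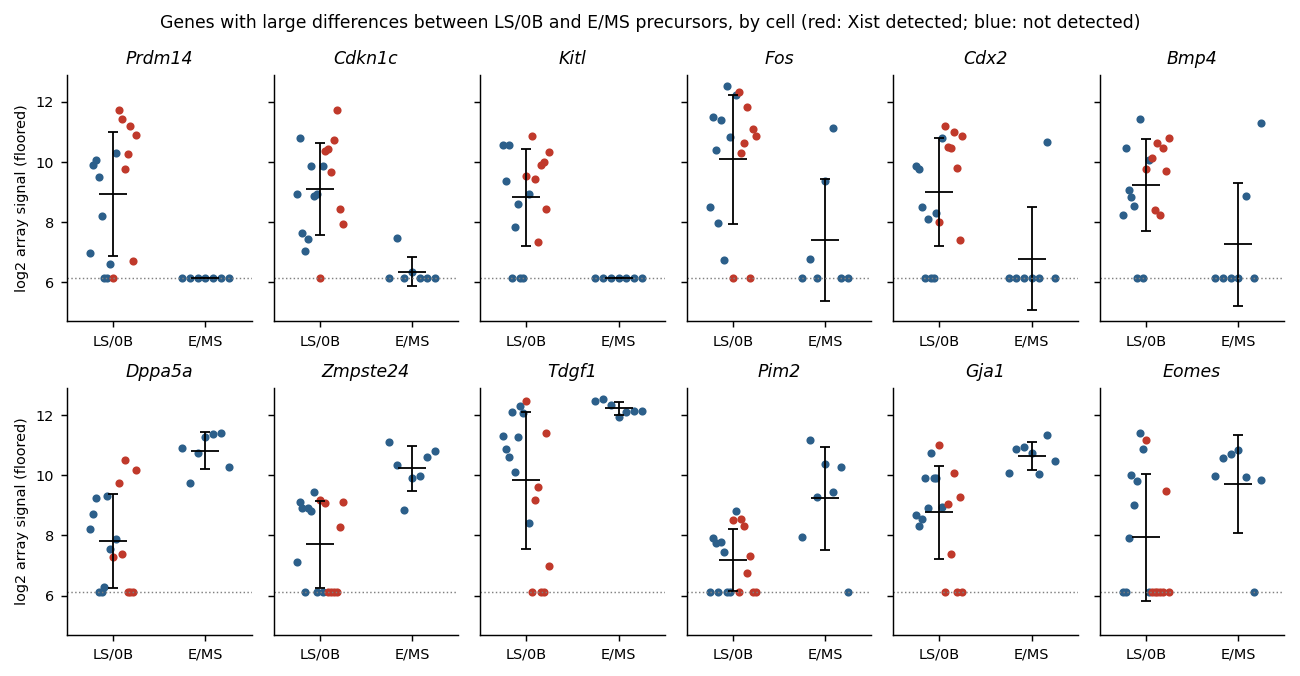
Floored log2 array signal of 12 genes with large differences, 1 point per cell, with LS/0B cells to the left of E/MS cells in each panel. Black bars are the mean and SD over 17 and 7 cells, the dotted line is the floor of 6.13, and red points are cells with Xist. Prdm14 and Kitl stand at the floor in all 7 E/MS cells, while Dppa5a lies between 9.76 and 11.42 there.

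Cdkn1c, the imprinted gene of the cyclin-dependent kinase inhibitor p57, was detected in 15 of 17 LS/0B cells and 1 of 7 E/MS cells. Its log2 signal ran from 6.13 to 11.72 (median 8.94) in LS/0B cells and from 6.13 to 7.46 (median 6.13) in E/MS cells. The groups overlapped in LS/0B replicates 4, 5 and 14, which were at or under the highest E/MS cell, replicate 2. The difference was 2.75 units, and it held a like size in both runs of numbers, 2.34 for 1 to 8 and 3.12 for 14 to 24. Of 13 measured cell cycle inhibitors, Cdkn1c and Cdkn1a were at least 1 unit higher and Gas1 at least 1 unit lower, with a list median of 0.00. Cdkn1a, the inhibitor p21, was detected in 9 LS/0B and 1 E/MS cells and was 1.49 units higher, 2.02 in cells numbered 1 to 8. Of the 9 LS/0B cells with Cdkn1a, 8 also had Cdkn1c. Gas1, a membrane protein first found in growth-arrested cells, was 1.80 units lower at LS/0B.

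Among 28 cell cycle drivers the median was -0.12 and 0 were higher by 1 unit. Ccne1, the G1/S cyclin E1, and the growth regulator Myc were lower by 1.11 and 1.18, but Ccne1 was lower by only 0.27 in the LS/0B cells numbered 1 to 8, and either gene dropped under 1 unit when single cells were left out (Ccne1 -0.91 without LS/0B replicate 18 or 19, -0.95 without E/MS replicate 3 and -0.98 without E/MS replicate 1, and Myc -0.91 without E/MS replicate 7 and -0.96 without E/MS replicate 3). The proliferation marker Mki67, Pcna and all 6 measured Mcm genes of the replicative helicase were detected in every cell of both stages and differed by at most 0.27 in either direction. Of 29 imprinted genes, Cdkn1c, Phlda2 and Slc38a4 were at least 1 unit higher and the median was 0.01. Phlda2, a growth-restraining neighbour of Cdkn1c, was detected in every cell, between 12.03 and 13.28 (median 13.03) in LS/0B and between 8.63 and 12.64 (median 12.22) in E/MS cells. Its 1.58-unit difference of means was 0.81 between medians. Slc38a4, an amino acid transporter, was 1.02 units higher, 0.59 without E/MS replicate 6, and under 1 unit in 11 of the 24 omissions of a single cell.

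Kitl encodes the ligand of Kit, which supports PGC survival and migration. It was detected in 14 of 17 LS/0B cells (56.6% to 96.2%), which ran from 6.13 to 10.87 in log2 signal with a median of 9.36, and was at the floor in all 7 E/MS cells. The LS/0B cells at the floor were replicates 4, 7 and 8. The mean difference was 2.69 units, at least 3.20-fold, with 2.03 for the cells numbered 1 to 8 and 3.28 for those numbered 14 to 24. This rests on 1 of 4 probe sets: the others stood at or near the floor in both stages, and with the mean of the probe sets the difference was 0.72. All 4 LS/0B cells with Kit also had Kitl, and 10 had Kitl without Kit. In the list of 11 Kit, chemokine and migration genes, Kitl and the ephrin receptor Ephb3 were at least 1 unit higher and the median was -0.02, or 0.54 for the cells numbered 14 to 24. Ephb3 differed by 1.13 and by 0.91 without any of E/MS replicates 1, 3 and 7. The chemokine receptor Cxcr4 was detected in 0 cells of either stage, and its ligand Cxcl12 in all.

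Fos, an immediate early gene and part of the AP-1 factor, was high in most LS/0B cells. It ran from 6.13 to 12.54 (median 10.85) in LS/0B cells and from 6.13 to 11.14 (median 6.13) in E/MS cells, in which only replicates 4 and 5 had a detected signal. The groups overlapped widely, the lowest LS/0B cells being replicates 14 and 22 at the floor. The difference of 2.68 units was 2.58 and 2.77 for the LS/0B cells numbered 1 to 8 and 14 to 24. Other immediate early genes did not follow it. Of 19, Fos and Jund were at least 1 unit higher, 0 were lower and the median was 0.11, with Jun at -0.49, Egr1 at -0.43, Fosb at -0.15 and Junb at 0.11. Jund, also an AP-1 part, was 1.17 units higher, but 0.86 without E/MS replicate 3 and 0.93 without E/MS replicate 4, and its 2 detected probe sets differed in sign.

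Cdx2, a caudal-type homeobox factor of the posterior embryo, was detected in 14 LS/0B cells and in 1 E/MS cell, replicate 6. LS/0B cells ran from 6.13 to 11.19 (median 9.77), and E/MS cells stood at the floor except replicate 6, which reached 10.66. The difference was 2.22 units, and it was 2.87 without E/MS replicate 6, 1.09 for LS/0B cells numbered 1 to 8 and 3.23 for those numbered 14 to 24. Its relative Cdx1 differed by 0.77, and Cdx4 was detected in no cell. Nkx1-2, a homeobox gene of the posterior epiblast, was detected in 9 LS/0B cells, up to 10.60, and at the floor in all E/MS cells, a difference of 1.58, or 0.83 for the LS/0B cells numbered 1 to 8. This rests on 1 of 3 probe sets, the others standing near the floor with differences of 0.15 and -0.00051.

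The BMP list of 22 genes had 2 members higher (Bmp4 and Bambi), 1 lower (Bmpr2) and a median of -0.15. Bmp4, a ligand of this pathway, was detected in 15 LS/0B and 2 E/MS cells. It ran from 6.13 to 11.44 (median 9.72) in LS/0B cells and from 6.13 to 11.29 (median 6.13) in E/MS cells, in which replicates 5 and 7 were high. The difference was 1.98 units, 1.35 for the LS/0B cells numbered 1 to 8. Bambi, a pseudoreceptor that dampens BMP signals, was 1.40 units higher, or 0.98 for the LS/0B cells numbered 1 to 8, and the receptor Bmpr2 was 1.03 lower, or 0.67 lower without E/MS replicate 7 and under 1 unit in 15 of the 24 omissions of a single cell. The BMP target genes Id1, Id2, Id3, Msx1 and Msx2 all had lower means at LS/0B, by 0.72, 0.34, 0.44, 0.71 and 0.16, none by 1 unit, while Id4 was 0.88 higher. The intracellular mediators Smad1, Smad5 and Smad4 differed by -0.28, -0.39 and -0.25.

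Other pathways had few members past 1 unit. Of 13 Nodal genes 2 were lower, the co-receptor gene Tdgf1 by 2.41 and the antagonist Lefty2 by 1.05, which 2 E/MS cells set (-0.54 without E/MS replicate 1 and -0.49 without E/MS replicate 2). Nodal itself differed by 0.39. Of 20 Wnt genes only Fzd7 passed 1 unit, a receptor that ran from 6.13 to 10.72 (median 6.13) in LS/0B and from 6.13 to 11.26 (median 10.32) in E/MS cells, lower by 1.96. Axin2, a direct target of Wnt signals, was detected in every cell and differed by 0.06. Of 17 FGF genes the ligand Fgf3 was lower by 1.13 (0.72 without E/MS replicate 7, 0.80 without E/MS replicate 1), and of 15 Notch genes the target gene Hes1 by 1.07 (0.80 without E/MS replicate 3, and under 1 unit in 11 of 24 omissions). The medians of these lists were 0.00, 0.01, 0.00 and 0.00.

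Dppa5a, an RNA-binding protein gene of pluripotent cells, had the largest negative difference. Its log2 signal ran from 6.13 to 10.53 (median 7.55) in LS/0B cells and from 9.76 to 11.42 (median 10.90) in E/MS cells. Only LS/0B replicates 20 and 24 reached the E/MS range. The means were 7.82 ± 1.56 and 10.82 ± 0.62, a difference of -2.9998, and it was -3.13 for the LS/0B cells numbered 1 to 8, -2.89 for those numbered 14 to 24 and -3.11 for those without Xist. Among LS/0B cells, 7 of the 11 with Prdm14 and 4 of the 6 without it had Dppa5a.

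Tdgf1 (Cripto) ran from 6.13 to 12.49 with a median of 10.62 in LS/0B cells. It was uniformly high in E/MS cells, from 11.94 to 12.53 with a median of 12.15. LS/0B replicates 4, 7, 8 and 14 lay in the E/MS range, and replicates 18, 21 and 22 were at the floor. The difference of -2.41 was -0.91 for the cells numbered 1 to 8, -1.23 for those without Xist and -3.74 for those numbered 14 to 24.

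In the pluripotency list of 20 genes, Klf5 and Klf2 were at least 1 unit higher, Dppa5a, Tdgf1 and Tbx3 lower, and the median was 0.02. Klf5 and Klf2, Krüppel-like factors of the naive network, were detected in 11 and 9 LS/0B and in 1 and 2 E/MS cells, with differences of 1.41 and 1.05. The other probe sets of Klf5 lay near the floor and differed by 0.13 and 0. Klf5 was 0.61 and Klf2 0.20 higher in the LS/0B cells numbered 1 to 8, and Klf2 was 0.92 higher without LS/0B replicate 21 and under 1 unit in 12 of the 24 omissions of a single cell. Tbx3, a T-box factor of this network, was detected in 9 LS/0B and all 7 E/MS cells and was lower by 1.61, by 0.46 for cells numbered 1 to 8 and 2.62 for cells numbered 14 to 24. The other probe sets of Tbx3 lay near the floor, with differences between -0.28 and 0. Nanog differed by -0.34, and Zfp42, Esrrb and Tfcp2l1 were detected in 1, 3 and 1 LS/0B and 0 E/MS cells.

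Of 12 primed epiblast genes 4 were lower, 1 was higher and the median was -0.32. Pim2, a serine/threonine kinase gene, ran from 6.13 to 8.82 (median 7.32) in LS/0B and from 6.13 to 11.19 (median 9.44) in E/MS cells, lower by 2.05. Car4, a carbonic anhydrase, was lower by 2.13, and Zic5, a zinc finger factor, by 1.68. The other probe sets of Zic5 differed by -0.45 and 0.07. Dnmt3b, a de novo DNA methyltransferase, ran from 6.13 to 11.73 (median 11.07) in LS/0B cells and from 11.22 to 12.37 (median 11.61) in E/MS cells. Its difference of -1.60 was -0.34 for the cells numbered 1 to 8 and -2.72 for those numbered 14 to 24, and 3 LS/0B cells stood at the floor. Sox3 was the member with the opposite sign, with a difference of 1.52, which was -0.11 for the LS/0B cells numbered 1 to 8. Among 14 DNA methylation and demethylation genes Dnmt3b alone passed 1 unit, and the maintenance genes Dnmt1 and Uhrf1 were detected in every cell, with differences of 0.25 and 0.24. The demethylating enzyme gene Tet1 was lower by 0.97, by 2.01 in cells numbered 1 to 8 and by 0.03 in those numbered 14 to 24. Of 15 histone methylation genes 0 passed 1 unit with all LS/0B cells, while 2 were lower by 1 unit for those without Xist, 4 for those numbered 1 to 8 and 2 for those numbered 14 to 24. Their median was -0.26, and 0.02 for the LS/0B cells numbered 14 to 24. Ehmt1, a histone H3K9 methyltransferase, and the demethylase Kdm1a were lower by 0.84 and 0.87.

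Streak and mesoderm genes went in both directions. Of 16, Cdx2 and Nkx1-2 were higher, Eomes, Lhx1 and Mixl1 lower, and the median was 0.00. Eomes, a T-box factor of the early streak, was detected in 8 LS/0B and 6 E/MS cells. LS/0B cells ran from 6.13 to 11.40 (median 6.13) and E/MS cells from 9.85 to 10.85 apart from replicate 6, which was at the floor. The difference was -1.78, and -0.80 for the LS/0B cells numbered 1 to 8. The other probe set of Eomes was detected in 10 LS/0B and 6 E/MS cells, with a difference of -2.42. The LIM homeobox gene Lhx1 was lower by 1.43 (0.98 without E/MS replicate 2) and the paired-type homeobox gene Mixl1 by 1.08 (0.80 without E/MS replicate 2, 1.82 without E/MS replicate 5, and under 1 unit in 8 of 24 omissions). Mesp1, a bHLH factor of nascent mesoderm, was detected in 16 LS/0B and 7 E/MS cells and differed by -0.93.

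Hoxb1, which was used elsewhere in the study to choose mesodermal cells, was detected in 11 LS/0B and 3 E/MS cells. It ran from 6.13 to 10.86 (median 8.91) in LS/0B cells and from 6.13 to 8.68 (median 6.13) in E/MS cells, with a difference of 1.51. The difference was larger for the LS/0B cells numbered 1 to 8 (2.68) than for those numbered 14 to 24 (0.48). Hoxb2 was detected in 7 LS/0B and 0 E/MS cells and was higher by 1.13, or 0.98 without LS/0B replicate 4 and 0.99 without LS/0B replicate 7. The other 16 of 18 Hox genes differed by less than 1 unit, and the list median was 0.00.

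Mesenchymal genes did not move together. Of 14, Mmp2 was higher, Snai1, Cdh11 and Pdgfra were lower and the median was -0.05. Snai1, the repressor of E-cadherin during epithelial-mesenchymal transition, was lower by 1.64, the mesenchymal cadherin gene Cdh11 by 1.92 and the growth factor receptor gene Pdgfra by 1.43 (0.84 for the LS/0B cells numbered 1 to 8). Each was at the floor in part of the cells of both stages. Mmp2, a matrix metalloproteinase, ran from 6.13 to 11.18 (median 9.97) in LS/0B and from 6.13 to 9.63 (median 7.30) in E/MS cells, higher by 1.90, and the vimentin gene Vim was higher by 0.93. Of 14 epithelial genes Cdh1 and Krt8 were at least 1 unit higher, 0 were lower and the median was 0.35, or 0.01 for the LS/0B cells numbered 1 to 8. Cdh1, the gene of E-cadherin, was detected in 16 of 17 LS/0B and 4 of 7 E/MS cells, from 6.13 to 11.40 (median 10.67) and from 6.13 to 11.41 (median 9.30), a difference of 1.57. Krt8, a keratin of simple epithelia, was 1.44 units higher.

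Further genes stood among the 15 largest in each direction without belonging to a list above. Higher at LS/0B were Ints6l, a relative of an Integrator subunit (2.22), Irs1, an adaptor of insulin and IGF receptors (2.08), the laminin chain gene Lamb1 (1.99), the actin-binding protein gene Shroom2 (1.99), the ubiquitin ligase gene Rnf213 (1.99), Tnip1, an inhibitor of NF-kappaB signalling (1.86), and Dusp4, a MAP kinase phosphatase (1.84). Irs1 was detected in 13 LS/0B cells and in E/MS replicate 3 alone. Dusp4 was 0.60 higher for the LS/0B cells numbered 1 to 8. Lamb1 was 0.92 and Rnf213 0.85 higher with the mean of their probe sets, and the 2 detected probe sets of Shroom2 differed in sign.

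Lower at LS/0B were Zmpste24, the protease that processes prelamin A (-2.54), Pmaip1, a pro-apoptotic BH3-only gene known as Noxa (-2.07), Aldh6a1, a mitochondrial aldehyde dehydrogenase of valine breakdown (-1.99), Gm6958 (-1.88), the forkhead gene Foxn2 (-1.87), Gja1, the gene of the gap junction protein connexin 43 (-1.87), and Rhobtb3 (-1.77). Zmpste24 ran from 6.13 to 9.45 (median 8.27) in LS/0B and from 8.83 to 11.11 (median 10.36) in E/MS cells, with 7 LS/0B cells above the lowest E/MS cell. Aldh6a1 was detected in 3 of 17 LS/0B and all 7 E/MS cells. Gja1 ran from 6.13 to 11.01 (median 8.93) in LS/0B and from 10.05 to 11.35 (median 10.74) in E/MS cells, and all 5 of its probe sets with signal were lower at LS/0B. Foxn2 was lower by 0.91 with the mean of its probe sets, and Rhobtb3 by 0.43. Among 15 apoptosis genes Bid, a pro-apoptotic BH3-only gene like Pmaip1, was higher by 1.82, or 0.68 with the mean of its 3 probe sets, Pmaip1 was lower, and the median was 0.07. Among 16 genes of glycolysis and pyruvate use the hexokinase gene Hk2 was lower by 1.5005, the glucose transporter gene Slc2a3 was higher by 1.07 (0.41 without E/MS replicate 3 and 0.89 without E/MS replicate 7), and the median was -0.03.

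Only 1 of 18193 genes had groups without overlap (0.0055% in that direction, and 0 genes, or 0%, in the other). It was Dnaja3, a mitochondrial co-chaperone, between 7.20 and 9.26 (median 8.52) in LS/0B and between 9.30 and 9.86 (median 9.39) in E/MS cells. The difference was -1.004, -0.93 without LS/0B replicate 3 and under 1 unit in 7 of 24 omissions of a single cell, and -0.27 with the mean of its 3 probe sets, of which 1 had a signal in most cells. With quantile normalization or arrays scaled to a common median, the groups overlapped for Dnaja3 too. Detection separated more genes: 11 (0.0605%) were detected in at least 50% of LS/0B and in 0 E/MS cells, and 2 (0.011%) in at least 50% of E/MS and in 0 LS/0B cells. Beside Prdm14, Kitl, Tfap2c and Nkx1-2, the first set held the planar polarity cadherin gene Celsr1 (13 LS/0B cells, difference 1.65, at least 1.17-fold), the kinase gene Nrk (9 cells, 1.44), the haematopoietic LIM-only gene Lmo2 (9 cells, 1.41), Traf3ip2, an adaptor of IL-17 signalling (10 cells, 1.39), Lyrm2 (9 cells, 1.34, with its 2 detected probe sets differing in sign) and Tnfaip8 (10 cells, 1.11, and 0.98 or 0.99 without LS/0B replicate 22 or 18). The second set was Fbxl16, an F-box protein gene (4 of 7 E/MS cells, -1.23, and -0.96 without E/MS replicate 3), and Jph1 (4 cells, -0.31). Membership of these sets goes by the probe set used: 1 other probe set of Jph1 was detected in 2 LS/0B and 3 E/MS cells, those of Tfap2c in up to 3 E/MS cells, and 1 of Lyrm2 in 4 LS/0B and 3 E/MS cells. It also goes by the detection limit. At the 99th percentile only Kitl (12), Prdm14 (10) and Celsr1 (9) of the named first-set genes stayed in at least 50% of LS/0B cells. Lyrm2 was then in 8, Nrk and Traf3ip2 in 7, Tfap2c and Nkx1-2 in 6, and Lmo2 and Tnfaip8 in 5. Fbxl16 was then in 3 and Jph1 in 0 E/MS cells. Some sizes also depended on the LS/0B cells used: for those numbered 1 to 8 the difference was 0.34 for Nrk, 0.93 for Celsr1, 0.75 for Traf3ip2, 0.81 for Lyrm2 and 0.77 for Tnfaip8. Of the genes above, Shroom2 (0.92), Slc2a3 (0.64), Slc38a4 (0.38), Ephb3 (0.18), Mixl1 (-0.055), Hes1 (-0.37), Fgf3 (-0.65) and Myc (-0.70) were under 1 unit for the same cells too. Jund (0.85), Hoxb2 (0.70), Lefty2 (-0.85), Bmpr2 (-0.98) and Dnaja3 (-0.76) were so for those numbered 14 to 24.

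Of the genes of other lineages, 5 of 15 endoderm, 10 of 16 blood and endothelial, 3 of 11 trophoblast, 8 of 11 neural plate and 2 of 16 allantois and lateral mesoderm genes were detected in 0 of the 24 cells, and others in nearly all. Of 15 endoderm genes only Sox17 passed 1 unit, detected in 7 LS/0B and 0 E/MS cells and higher by 1.23, with a list median of 0.05. The Sox17 difference was 0.56 for the LS/0B cells without Xist and 0.21 for those numbered 1 to 8. Sox17 also has a known role in human PGC specification. Apoe, a lipid carrier gene, was detected in 12 LS/0B and 6 E/MS cells. Foxa1, Foxa2, Afp, Apob and Hnf4a were detected in 0 of the 24 cells. The endoderm genes Ttr and Amn were each detected in 1 LS/0B cell, which had Sox17. Spink1, Cubn, Rbp4 and Apoa1 were detected in LS/0B cells with Sox17 and also in replicate 21, which had none. Rbp4 and Apoa1 were also detected in E/MS cells, where Sox17 was not. Prdm14 was detected in 6 of the 7 LS/0B cells with Sox17 and in 11 of all 17. Whether Sox17 goes with endoderm or germ cell genes here was not tested. Of 16 blood and endothelial genes only Lmo2 passed 1 unit, and Gata1, Hbb-bh1, Hba-x, Klf1, Pecam1, Cdh5, Tek, Tie1 and Flt1 were detected in 0 cells of either stage, while Egfl7 was detected in 16 LS/0B and 5 E/MS cells, Gata2 in 7 and 2 and Kdr in 6 and 4. Of 11 trophoblast genes 0 passed 1 unit (median 0.12), and Elf5 and Tpbpa were detected in 0 cells. Esx1, a placental homeobox gene, was detected in all 17 LS/0B and 7 E/MS cells, Hand1 in 16 and 6, Ascl2 in 14 and 6 and Plac1 in 6 and 1. Over the 24 cells Ascl2 ran only from 6.56 to 7.63, close to the detection limits, and Esx1 from 7.04 to 8.40, against 6.13 to 10.92 for Hand1. Whether such narrow ranges reflect expression or probe background was not tested. Of 11 neural plate genes only Sox11 passed 1 unit, lower by 1.47 with the probe set used and by 0.26, 0.40, 0.33 and 0.02 with its other detected probe sets. Sox1, Pax6, Six3 and Tubb3 were detected in 0 cells, while Nes was detected in most cells of both stages and Gbx2 in some LS/0B cells and 1 E/MS cell. Of 16 genes of allantois and lateral mesoderm the cofactor gene Cited1 (1.61) and the LIM homeobox gene Isl1 (1.05, 0.75 without any of E/MS replicates 1, 2 and 5, and under 1 unit in 11 of 24 omissions) were higher, Gata4 was lower by 1.34, and the median was 0.05. Cited1 and Isl1 differed by 0.99 and 0.75 for the LS/0B cells without Xist and by 0.57 and 0.59 for those numbered 1 to 8. The 10 housekeeping genes had a median of -0.04 and 0 past 1 unit.

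The LS/0B cells differed widely among themselves. A set of 6 germ cell and pluripotency genes (Prdm14, Tfap2c, Dppa3, Dnd1, Kit and Sox2) and a set of 6 mesodermal genes (Snai1, Cdh11, Pdgfra, Eomes, Hoxb1 and Lhx1), chosen after their values had been seen, were counted in each cell. LS/0B replicates 18 and 24 had all 6 of the first set, replicates 2, 16, 19, 20 and 22 had 5, and replicates 3 and 21 had 4. The other 8 LS/0B cells had 2 or fewer. In E/MS cells the count was 4 in replicate 5 and 2 or fewer in the other 6. All 6 mesodermal genes were detected in LS/0B replicates 4, 7, 8, 14 and 23, and in E/MS replicates 1, 3 and 7. None was detected in LS/0B replicates 18, 21, 22 and 24 nor in E/MS replicate 6.

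Certain genes were hardly found in the same LS/0B cell. Sox2, a pluripotency factor whose mean differed by 0.06 between stages, was detected in 7 LS/0B cells, all of which had Prdm14 and Sox3, and Snai1 in 6 others, with 0 cells having both. Likewise 0 LS/0B cells had Sox2 with Eomes or with Pdgfra, 1 had Sox2 with Hoxb1 and 1 had Sox2 with Cdh11. These counts use 1 probe set per gene, and the other probe set of Eomes was detected in 10 rather than 8 LS/0B cells. All 8 LS/0B cells with Dppa3 also had Prdm14 and Dnd1, and 3 of them had Hoxb1. All 6 with Snai1 had Eomes. In E/MS cells Sox2 occurred together with Eomes in 2 cells and with Snai1 in 1. Beside Xist the counts were mixed: LS/0B replicates 14 and 23 had Xist, 0 of the 6 germ cell genes and all 6 mesodermal ones, and replicate 16 had no Xist and 5 of the germ cell genes. Ppp2cb, a phosphatase subunit gene that followed sets of arrays in earlier results of these data, was detected in LS/0B replicates 18 to 22 and 24, which had 4 to 6 of the germ cell genes, and in E/MS replicates 1 and 7. Its part in the pattern, and that of Xist, was not tested.

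**Figure D3:**
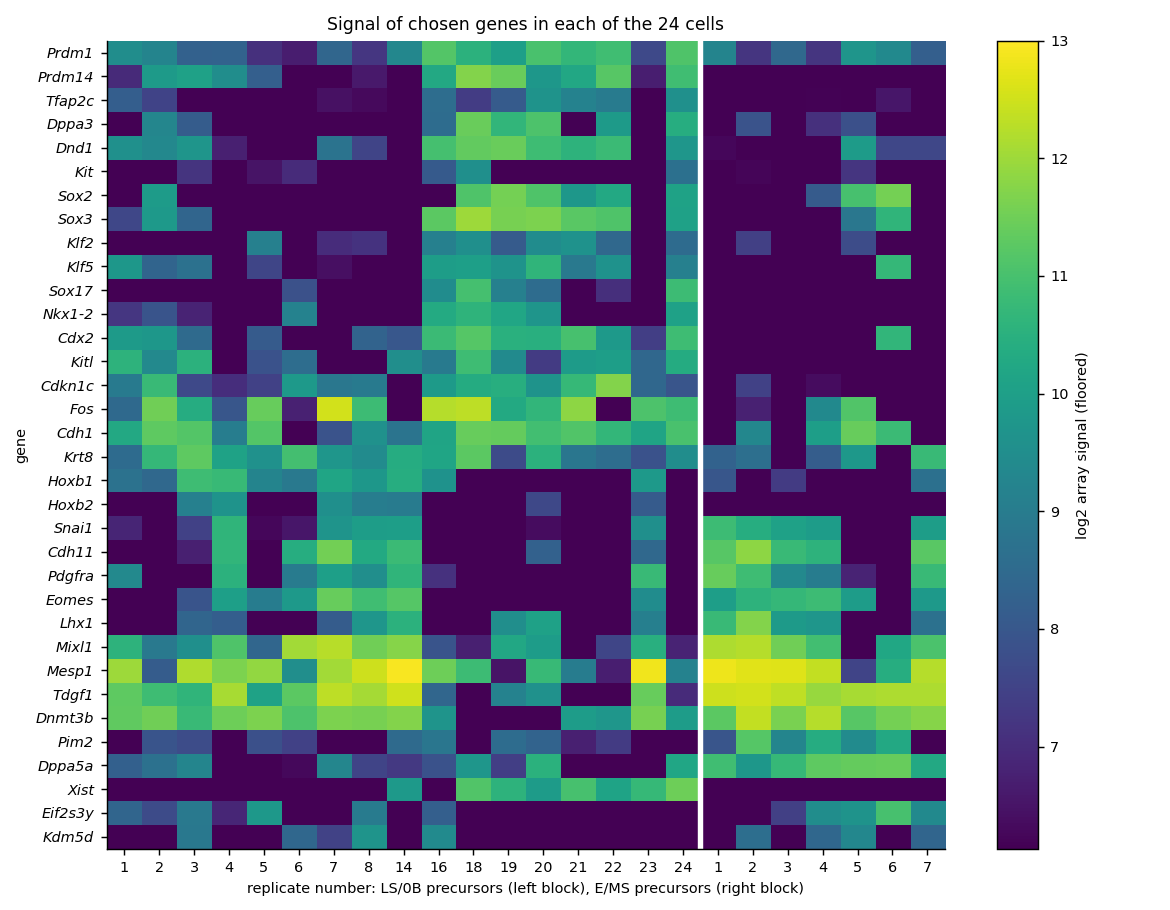
Floored log2 signal of chosen genes (rows) in each of the 24 cells (columns), with LS/0B cells by replicate number in the left block and E/MS cells in the right block. Dark blue is the floor of 6.13. With the probe set used, LS/0B replicates 18 to 22 and 24 are at the floor for Eomes. Snai1, Cdh11, Pdgfra, Eomes and Lhx1 were detected in LS/0B replicates 4, 7, 8, 14 and 23 and in E/MS replicates 1 to 4 and 7. Hoxb1 and Hoxb2 were also detected in those LS/0B cells, but in only 3 and 0 of the 7 E/MS cells.

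Mean signals of the germ cell and mesenchymal lists were also taken in each cell. Both lists share genes with the sets counted above, and the germ cell list holds screening genes, so these scores are no independent support for that pattern. The germ cell score, the mean of its 11 genes, ran from 8.07 to 10.86 (median 9.41) in LS/0B cells and from 7.94 to 9.30 (median 8.29) in E/MS cells. LS/0B replicates 16, 18, 19, 20, 22 and 24 were at 10.47 or above, and replicates 4, 6, 7, 8, 14 and 23 at 8.37 or below, where the E/MS cells other than replicate 5 also lay. The mesenchymal score ran from 7.36 to 8.94 (median 8.03) in LS/0B cells and from 7.09 to 8.82 (median 8.43) in E/MS cells, where replicates 5 and 6 were the lowest.

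**Figure D4:**
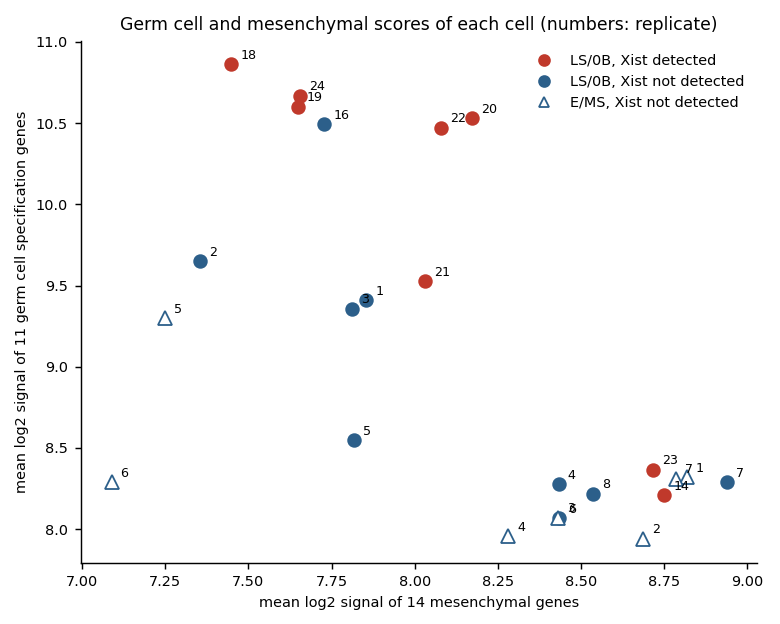
Mean floored log2 signal of 14 mesenchymal genes (horizontal) against that of 11 germ cell genes (vertical) in each cell, LS/0B as circles and E/MS as triangles, with replicate numbers beside them. LS/0B cells with Xist (red) lie at both ends, and E/MS replicates 5 and 6 stand apart at the left.

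The genes with the largest SD over LS/0B cells, among those detected in 25% to 75% of them, were set beside the germ cell counts above. Some were found mostly in cells with 4 or more of those 6 genes, or mostly in cells with fewer. Others were found in both. These sets were chosen after their values had been seen, and replicate 3 had 4 genes of each. Aplnr, the apelin receptor gene, had an SD of 2.71 and was detected in LS/0B replicates 1, 4, 5, 6, 7, 8, 14 and 23. It differed by -0.58 between stages. Klhl6 (SD 2.51) was detected in LS/0B replicates 3, 4, 6, 7, 8, 14 and 23 and differed by 1.22, or by 0.34 for those numbered 14 to 24, and Tbx3 (SD 2.15) was at the floor in all of replicates 16, 18 to 22 and 24. AU015836, a gene of unassigned role here (SD 2.34), was detected in LS/0B replicates 16, 18 to 22 and 24, up to 11.69, and in E/MS replicate 5, and differed by 1.58, or by -0.18 for the LS/0B cells numbered 1 to 8. Egr1, an immediate early gene, had an SD of 2.45 and was detected in 12 LS/0B and 5 E/MS cells, among them LS/0B cells of both count ranges. Gm6958 (SD 2.29), Igfbp4 (2.29) and Etv2 (2.17) were likewise detected in LS/0B cells of both count ranges. Gm6958 was in replicates 4 and 24 among others, Igfbp4 in 14 and 20, and Etv2 in 7 and 18. In E/MS cells the largest SDs belonged to Egr1 (2.67), Igfbp3 (2.62), Cdh11 (2.47), Cyp26a1 (2.46) and Igfbp4 (2.44). Igfbp3, a binding protein of insulin-like growth factors, was detected in E/MS replicates 4, 5 and 6, while Cyp26a1, a retinoic acid-degrading enzyme, was detected in replicates 1 to 4.

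Levels at the neighbouring stages of the same lineage are given in time order, from pre-streak (PS) epiblast (8 cells) over E/MS and LS/0B precursors to Early/Mid-Bud (E/MB) PGCs (8 cells, chosen by Dppa3). Prdm14 averaged 6.13, 6.13, 8.94 and 10.84, Tfap2c 6.21, 6.20, 7.45 and 9.11, and Cdx2 6.13, 6.78, 9.002 and 10.14. Dppa5a averaged 11.12, 10.82, 7.82 and 6.94, Tdgf1 11.91, 12.24, 9.83 and 6.13, and Gja1 10.59, 10.64, 8.77 and 6.13. For these genes the LS/0B mean lay between those of the stages on either side. Kitl averaged 6.29, 6.13, 8.83 and 9.03, with SDs over cells of 1.61 and 1.65 at LS/0B and E/MB. These last means lay closer together than those SDs, which is no test of a difference between the stages. Pim2 averaged 11.93, 9.23, 7.18 and 6.59.

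Other genes were highest or lowest at a single stage. Fos averaged 6.92, 7.40, 10.09 and 7.52, with SDs of 1.60, 2.03, 2.16 and 1.99. Hoxb1 averaged 6.35, 6.93, 8.44 and 6.13 and was detected in 0 of the 8 E/MB PGCs. Snai1 averaged 6.72, 9.07, 7.42 and 6.19 and Aldh6a1 6.44, 8.52, 6.52 and 6.44, both highest in E/MS cells. The groups at the ends were chosen by other transcripts, so these levels are a description.

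**Figure D5:**
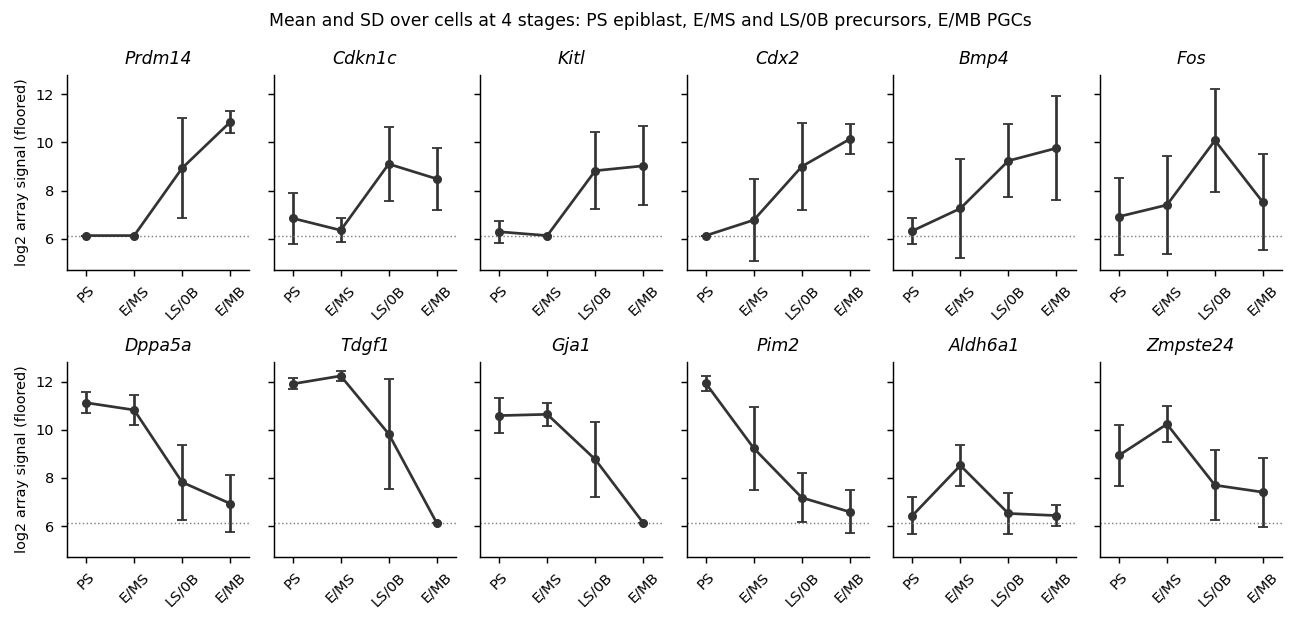
Mean floored log2 signal with SD over cells for 12 genes at PS epiblast (8 cells), E/MS precursors (7), LS/0B precursors (17) and E/MB PGCs (8), in time order, with the floor of 6.13 dotted. Fos is highest at LS/0B (10.09) and Aldh6a1 at E/MS (8.52), while Prdm14 and Dppa5a run in opposite directions over the last 3 stages.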

How the data were processed

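Each array held the amplified cDNA of 1 cell. The deposited values are linear intensity per probe set, which per the submitters' processing notes came from MAS5; no scaling target is stated there. Of all values in the 24 cells, 15.3% stood at 1, the lowest value. Amplification loses rare transcripts at random, which widens the spread between cells, and precision is limited by how many arrays there are. Correlations between cells lay between 0.741 and 0.900, and 0 pairs were identical.

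Of 45101 probe sets, 34945 carried 1 symbol in the platform annotation, giving 18193 genes; 932 with several symbols, 9160 unnamed here and 64 controls were left out. For a gene with several, the brightest probe set on average over the 106 cells (log2) was taken. As floor served the median over cells of the 126 background probe sets' 90th percentile. Detection limits (95th percentile) lay between 94.9 and 146 in the 24 cells. Folds are lower bounds, against the dimmer group's detection limits. A score averages a list's floored log2 signals within a cell. With 1 sample per stage no p-value was computed; exact intervals are Clopper-Pearson.

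The members and the 28 lists (454 symbols, 424 measured) were chosen with earlier results of these data known. Genes named are, in each direction, the 15 largest differences, if detected in 50% or more of the higher group, up to 10 without overlap, up to 10 detected in at least 50% of one stage and 0 cells of the other, list members, screening genes, Xist and Y-linked genes, and those of largest SD. Abca4 and Ppp2cb, which followed sets of arrays in those results, differed by 0.14 and -0.28. Alternatives changed the floor, the probe set summary, the normalization, the average and the LS/0B cells used. Scripts were tested on simulated data (Python 3.11.15, pandas 2.3.3, numpy 2.4.6, scipy 1.17.1, matplotlib 3.10.9).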

Additional observations from a re-analysis of the deposited data

Results flagged for a closer look

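Of 71 sets of values tested, 17 had 1 of the 7 E/MS cells far from the other 6, by a gap to the nearest cell over the whole range above 0.568. For normally distributed values chance gives about 1 in 20 such sets. Many cells here stand at the floor, and the genes share cells, so the sets are not independent. The 17 of 71 can therefore not be set against that rate. Genes at the floor in all 7 cells, such as Prdm14 and Kitl, could not be flagged. For Cdx2, Dusp4, Irs1, Lmo2 and Traf3ip2 the other 6 cells tie at the floor, so the ratio is 1 for any higher value. The 17 LS/0B cells were too many for this comparison.

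E/MS replicate 6 was the cell apart for Cdx2 (10.66, the others at 6.13, ratio 1), Eomes (6.13, the others from 9.85 to 10.85, 0.788), Dnaja3 (9.86 against 9.30 to 9.43, 0.766) and Tfap2c (6.54 against 6.13 to 6.18, 0.887, none of them above the detection limit). It also had the fewest detected probe sets, 9776 against 11932 to 13137 (0.641), and the lowest housekeeping score, 10.94 against 11.32 to 11.59 (0.578). The part of this yield in its gene values was not tested.

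E/MS replicate 5 was apart in its germ cell score (9.30 against 7.94 to 8.32, 0.721), in Dusp4 (7.92 against 6.13, ratio 1), in Traf3ip2 (6.59 against 6.13, ratio 1, below the detection limit) and in the hybridisation controls, which are added after amplification (10.49 against 9.22 to 9.73, 0.596).

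Other cells were apart for single genes. E/MS replicate 3 was low for Car4 (6.13 against 10.30 to 11.75, 0.742) and high for Irs1 (8.48 against 6.13, ratio 1). E/MS replicate 2 was high for Cdkn1c (7.46 against 6.13 to 6.36, 0.832). E/MS replicate 4 was low for Gm6958 (6.13 against 11.16 to 12.20, 0.828) and stood barely above the floor for Lmo2 (6.15, ratio 1). E/MS replicate 7 was low for Pmaip1 (6.58 against 9.57 to 11.76, 0.577) and high in its Hox score (6.72 against 6.41 to 6.497, 0.728).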

How the results depend on the processing

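Counts by size moved most with the floor. The 256 genes higher at LS/0B were 424 with the floor at 50% of its value, 112 with it doubled, 1174 without it, 138 with the mean of a gene's probe sets, 564 with group medians and 615 with LS/0B replicates 14 to 24. The 250 genes lower at LS/0B were 477, 96, 1371, 99 and 600 under the first 5 of these, 495 without Xist cells and 549 with LS/0B replicates 1 to 8. Leaving out single cells gave 238 to 337 genes higher and 230 to 323 genes lower. Genes with no overlap, higher at LS/0B, were 0, but 3 without Xist cells, 6 with replicates 1 to 8, 7 with replicates 14 to 24, and 0 to 1 when single cells were left out. Genes with no overlap, lower at LS/0B, were 1, but 0 with the mean of probe sets, quantile normalization or median scaling, 11, 12 and 3 with the 3 sets of LS/0B cells in the same order, and 1 to 2 when single cells were left out. Fewer cells leave more room for groups without overlap.

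Of 919 list and array medians recomputed, 915 moved by less than 1 SD. This SD is that of the cell scores, or of the cell medians for whole arrays, over LS/0B cells. It is wide, and all but 10 of the 34 settings omit 1 cell, so the 915 do not show stability. The germ cell median of 0.82 counted as unmoved at 0.39 and at 1.78. The 4 that moved by more were list medians. Without a floor these were primed epiblast (-1.12) and Nodal signalling (-0.35). With replicates 14 to 24 they were Kit ligand, chemokine and migration (0.54) and histone methylation (0.024). Of 81 named genes past 1 unit, 78 never took the opposite sign under the 34 settings. A difference that vanished was not counted as opposite, as for Dppa3 with group medians, which both stood at the floor. AU015836 (-0.18) and Sox3 (-0.11) turned with LS/0B replicates 1 to 8, and Klhl6 (-0.059) without a floor. The causes were not tested. Past 1 unit stayed 54 of 81 without Xist cells, 47 with replicates 1 to 8, 74 with replicates 14 to 24 and 51 with the mean of probe sets. No paired analysis was possible because each array is 1 cell, the labels tie no cell of one stage to a cell of the other, and no test between the stages was run. Signals near the floor have no order, so absence of a transcript cannot be shown.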
